A study of Mus musculus with 30 samples.

Results

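Chromatin accessibility was described at 31 genes that control programmed cell death and survival in mouse CD4 T cells. A peak, a stretch of 401 bp with many transposase cuts, was assigned to one of these genes when the gene was the nearest protein-coding gene body within 100 kb, and 200 of the 69316 peaks in the deposited table of 26 libraries (mm10) met that rule. Of these 200 peaks, 103 lay in gene bodies, 27 at promoters, 37 downstream, 21 upstream, and 12 outside the body of Pmaip1, whose strand the gene table used here does not give. The 5 genes with the most peaks were Bcl2 with 31, Fasl with 16, and Bcl2l1, Pmaip1 and Cflar with 13 each, while Bax, Bak1, Bik, Casp6 and Birc5 had 1 each. Peaks are numbered within each gene along the chromosome, so that Pmaip1 peak 9 is the ninth of its 13.

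The groups held 2 libraries each, numbered 1 and 2, and all values below are given in that order. Regulatory T cells (Treg), sorted as CD4+hCD2+ cells from lymph nodes and spleen of C57BL6/J mice whose Foxp3 gene drives an hCD2 reporter (Foxp3-IRES-hCD2), were prepared with a Batf-/- genotype (BATFKO Treg) and without it (WT Treg), beside their CD4+hCD2- conventional counterparts (Tconv). From the same reporter strain, effector Treg (eTreg, CCR7lo) and central Treg (cTreg, CCR7hi CD44lo) were sorted within the hCD2+ gate, and effector (Teff) and naive (Tnaive) cells with the same markers within the hCD2- gate. Foxp3R397W Treg and Foxp3WT Treg were CD4+hCD2+GFP- cells whose second Foxp3 allele carried an IRES-GFP reporter, so hosts of the mutant cells also had cells using a normal allele. The last 4 groups were Treg lacking both factors (Foxp3KO-IRES-hCD2.Batf-/-, hereafter DKO), sorted as CD4+hCD2+ cells that carried CD45.2, GFP and Thy1.1 and lacked CD45.1, after receiving Foxp3 and BATF retroviruses in place of the factors' own genes (Foxp3+BATF DKO), BATF alone (BATF DKO), Foxp3 alone (Foxp3 DKO) or mock viruses (mock DKO). The deposited names of the DKO libraries also carry the word vivo. The mutant, its control and the DKO groups were titled omniATAC, a variant of the ATAC protocol, and the others ATAC, so no comparison below crosses the 2 protocols.

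Cells die by apoptosis along an intrinsic route, in which BH3-only proteins neutralise pro-survival BCL-2 proteins and free Bax and Bak1 to permeabilise mitochondria, and along an extrinsic route, in which death ligands such as Fasl and Tnfsf10 (TRAIL) engage receptors that recruit Fadd and caspase-8. Released mitochondrial factors assemble the Apaf1 and caspase-9 apoptosome, and inhibitor of apoptosis (IAP) proteins hold caspases and receptor complexes in check. In mice, Treg numbers are known to depend on Mcl1 and to be limited by Bcl2l11 (Bim), and Foxp3 and the AP-1 family factor BATF are both needed for effector Treg. ATAC-seq counts transposase cuts in open chromatin, so the scores below measure accessibility near a gene and not its expression.

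The scores are the authors' normalized peak scores, and each was a whole number of reads times 1 factor per library. Libraries held 3716499 to 25462278 reads in peaks. A second deposited table of 22 libraries shared 18 libraries with the first, of which 12 carried another name there, including every eTreg, cTreg, Tnaive and Teff library and every Foxp3R397W and Foxp3WT library. There the eTreg and Tnaive libraries are named Foxp3WT Treg, the cTreg libraries Foxp3R397W Treg and the Teff libraries Foxp3KO Treg. The Foxp3WT libraries are named cTreg there, and the Foxp3R397W libraries eTreg. The names of the 26-library table are used. Under them, the peak at Foxp3 on chrX:7583922-7584322 scored 316 to 1119 in the 20 libraries named Treg and 1.28 to 13.6 in the 6 named Tconv, Tnaive or Teff. The peak at Batf on chr12:85686411-85686811 held 0 reads in both BATFKO libraries, 0 to 8 in the 8 DKO libraries and 117 to 1490 in the 16 others, while the Foxp3 knockout in DKO cells could not be checked from its peaks. No label says that the libraries of a group came from separate animals, and a p-value below therefore reflects no more than library-to-library spread, which may be technical. In bulk samples, fewer cells of a type and less open chromatin per cell cannot be told apart.

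The promoters of 4 genes are shown because their genes, the death ligand Fasl, the pro-survival Bcl2 and the BH3-only genes Bcl2l11 and Bbc3 (Puma), had many called peaks or a forkhead motif at the start of the gene. Each runs 5′ to 3′ on the gene's strand from 250 bases before the start to 50 after it (RefSeq, GRCm38.p6), with matches to any of 6 searched motifs in capitals.
Fasl, chr1:161788446-161788745, minus strand: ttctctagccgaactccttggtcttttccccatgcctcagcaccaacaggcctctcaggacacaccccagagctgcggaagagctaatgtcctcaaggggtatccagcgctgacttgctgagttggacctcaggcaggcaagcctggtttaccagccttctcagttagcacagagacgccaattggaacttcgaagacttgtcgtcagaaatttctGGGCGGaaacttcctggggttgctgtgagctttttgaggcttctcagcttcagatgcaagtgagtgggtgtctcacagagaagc
Bcl2, chr1:106714241-106714540, minus strand: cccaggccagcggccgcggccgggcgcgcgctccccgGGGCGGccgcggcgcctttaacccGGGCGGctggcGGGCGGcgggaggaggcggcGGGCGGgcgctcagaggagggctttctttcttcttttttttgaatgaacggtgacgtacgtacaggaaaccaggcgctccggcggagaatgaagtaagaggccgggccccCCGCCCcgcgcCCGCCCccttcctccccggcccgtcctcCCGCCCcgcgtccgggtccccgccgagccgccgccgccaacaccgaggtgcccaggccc
Bcl2l11, chr2:128125788-128126087, plus strand: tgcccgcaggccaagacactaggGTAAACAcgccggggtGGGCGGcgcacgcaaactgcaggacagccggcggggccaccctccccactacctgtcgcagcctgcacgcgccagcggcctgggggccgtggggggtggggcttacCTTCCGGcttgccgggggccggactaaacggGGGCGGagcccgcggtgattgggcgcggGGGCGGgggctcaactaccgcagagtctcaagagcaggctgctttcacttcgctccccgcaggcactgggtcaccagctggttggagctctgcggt
Bbc3, chr7:16310011-16310310, plus strand: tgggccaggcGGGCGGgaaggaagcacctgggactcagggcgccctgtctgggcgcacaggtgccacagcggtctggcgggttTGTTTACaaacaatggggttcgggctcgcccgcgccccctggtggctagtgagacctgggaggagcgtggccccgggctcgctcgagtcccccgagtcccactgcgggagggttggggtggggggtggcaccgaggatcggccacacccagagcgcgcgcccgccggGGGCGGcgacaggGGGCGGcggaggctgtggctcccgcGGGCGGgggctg

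The motifs, searched on both strands, were AP-1 (TGANTCA), forkhead (TGTTTAC), GC box (GGGCGG), ETS (CCGGAAG) and longer NF-kB and IRF motifs. In these 4 promoters the capitals mark GC boxes in all, a forkhead match in Bcl2l11 and in Bbc3, and an ETS match in Bcl2l11. Bcl2l11 and Bbc3 each had a further promoter entry overlapping a peak, not shown, whose only matches were GC boxes. The strongest Bcl2l11 peak, peak 2, lay at that further entry. Among the 39 promoters of the 28 genes with an entry, 25 (64.1%) held a GC box, against 35.7% of all 32851 promoters. The forkhead motif stood in 2 of the 39, those of Bbc3 and Bcl2l11, and in 3.65% of all promoters. AP-1, the motif class of BATF, stood in 2 of the 39, at Bcl2a1b and Fas, and in 7.81% of all, while ETS stood in 5 (8.86% of all), NF-kB in 1 (1.47% of all) and IRF in 1 (3.44% of all). A match is only a description of these windows.

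Over the 10 comparisons of 2 groups given below, 139 of the 200 peaks were called at least once and 61 never, and 62.2% of all peaks were called at least once. The 200 peaks had a median score of 85.3, averaged over libraries, beside 48.6 for all peaks. No share called was matched for score. Of the 27 promoter peaks, 11 (40.7%) were called in at least 1 of the 10 comparisons of 2 groups, against 128 (74.0%) of the 173 other peaks. The shares over all peaks were 35.8% at promoters and 66.3% elsewhere, so promoters of these genes were called about as often as promoters in general. The match is rough, because the 27 lie at their own gene's promoter and the all-peak share counts any gene's promoter. Bik, Pmaip1 and Tnfrsf10b have no promoter entry, so all their peaks are among the 173. The strongest promoter peak, Birc3 peak 7, scored 1552 and 1545 in eTreg and 1601 and 1589 in cTreg, with both eTreg libraries just below both cTreg libraries and no call (adjusted p = 0.94). The Bcl2 promoter, peak 31, scored 256 and 287 in Foxp3+BATF DKO, 304 and 475 in BATF DKO, 312 and 369.9 in Foxp3 DKO and 322 and 348 in mock DKO, with the first group lowest but no call (adjusted p = 0.24 against mock DKO). The 6 genes below had no called peak in any of the 10 comparisons: the effector Bax, the BH3-only genes Bad and Bik, the executioner caspase Casp6, the death-receptor adaptor Fadd, and Birc5 (survivin), an IAP-family protein of cell division.

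Treg were first compared with conventional CD4 cells, in bulk and in the resting subsets. Peaks at the BH3-only genes Pmaip1 (Noxa) and Bid, the death ligand Tnfsf10, the TRAF adaptor Traf1 and the pro-survival gene Bcl2l1 (Bcl-xL) were higher in WT Treg, and peaks at Fasl were lower. A peak was called when its adjusted p from limma (Benjamini-Hochberg over all 69316 peaks) was under 0.05. By the naming rule given below, called peaks were mainly named from those whose libraries did not overlap. Lack of overlap at them is therefore no further support. In WT Treg against Tconv, 30 of the 200 peaks were higher and 18 lower, a share of 24% beside 20.0% of all peaks (10.1% higher and 9.92% lower), with a median log2 change of 0.12 beside 0.01 over all peaks. BH3-only genes had 10 peaks higher and 0 lower of 46, with 7 of the 10 at Pmaip1. The 16 Fasl peaks had 1 higher and 9 lower. Leaving out WT Treg 1 left 26 calls, and leaving out Tconv 2 left 30.

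Pmaip1 peak 9 (chr18:66477946-66478346, 12388 bp from the gene body) scored 64.8 and 58.2 in WT Treg, against 8.16 and 9.09 in Tconv (log2 change 2.70, SE 0.51, adjusted p = 0.00023). Tnfsf10 peak 1 scored 121 and 96 in WT Treg, against 31 and 11.4 in Tconv (log2 change 2.45, SE 0.32, adjusted p = 1.2e-06). Traf1 peak 6, within the gene for this signalling adaptor of TNF receptors, scored 122 and 151 in WT Treg, against 42.5 and 31.8 in Tconv (log2 change 1.86, SE 0.25, adjusted p = 1.8e-06). At these 3 peaks both WT Treg libraries lay well above both Tconv libraries. The reverse held at Fasl peak 16, 12827 bp upstream of the gene for Fas ligand, which scored 45.2 and 31.6 in WT Treg, against 186 and 202 in Tconv (log2 change -2.33, SE 0.36, adjusted p = 2.2e-05). Bcl2 had peaks in both directions, 5 higher and 7 lower, led upwards by peak 9 with 88 and 56.1 in WT Treg, against 22.9 and 9.09 in Tconv (log2 change 2.2, SE 0.40, adjusted p = 0.00013).

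In cTreg against Tnaive, which contrasts resting Treg with resting conventional cells, 36 peaks were higher and 11 lower, 23.5% beside 16.6% of all peaks (8.80% higher and 7.82% lower). The median log2 change was 0.17, beside -0.03 over all peaks. Leaving out cTreg 1 or cTreg 2 left 29 calls each. Of the 30 peaks higher in WT Treg than Tconv, 21 (70%) were among the 36 higher here (58.3%), and for all peaks the shares were 54.4% and 62.6%. Bcl2l1 peak 4 scored 64 and 67.2 in cTreg, against 11.5 and 11.7 in Tnaive (log2 change 2.4, SE 0.28, adjusted p = 1.9e-07). Bid peak 3 scored 17.8 and 12.1 in cTreg, against 3.83 and 2.59 in Tnaive (log2 change 1.91, SE 0.36, adjusted p = 0.00023), at the gene whose BH3-only product links caspase-8 to mitochondria. Both were higher in both cTreg libraries. Of the 12 called BH3-only peaks, 6 lay at Pmaip1 and 5 at Bcl2l11. All 12 called BH3-only peaks were higher in cTreg, and so were all 6 called peaks of the IAP family and its antagonist Diablo, of which that of Diablo lost its call without cTreg 1 (adjusted p = 0.41) or Tnaive 1 (adjusted p = 0.38) and in 5 of 7 other settings. Birc3 peak 1 is an example, with 29.3 and 29.8 in cTreg, against 14 and 3.89 in Tnaive (log2 change 1.83, SE 0.39, adjusted p = 0.0011), a call lost without Tnaive 2 (adjusted p = 0.1). Fasl was split here: peak 2, 87007 bp downstream, scored 56.9 and 60.6 in cTreg, against 6.39 and 15.5 in Tnaive (log2 change 2.43, SE 0.32, adjusted p = 1.1e-06), while 5 other Fasl peaks were lower.

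The effector step, from resting to CCR7lo cells, gave the 2 largest counts of calls among the 12 comparisons, in Treg and in conventional cells. In eTreg, 11 of 13 Pmaip1 peaks were higher than in cTreg and 0 lower, both Hrk peaks were higher, while 15 of 31 Bcl2 peaks and 10 of 12 Bcl2l11 peaks were lower. In eTreg against cTreg, 35 peaks were higher and 52 lower, 43.5% beside 37.1% of all peaks (19.7% higher and 17.4% lower), with a median log2 change of -0.06 beside 0.03. In Teff against Tnaive, 48 were higher and 43 lower, 45.5% beside 40.3% of all peaks (20.7% higher and 19.6% lower). Leaving out cTreg 1 left 55 calls in the eTreg comparison. Of the 35 peaks higher in eTreg, 28 (80%) were among the 48 higher in Teff (58.3%), and of the 52 lower, 32 (61.5%) were among the 43 lower in Teff (74.4%); 0 went opposite ways. For all peaks the corresponding shares were 70.4% and 66.8% of the higher lists and 71.4% and 63.3% of the lower ones. Of the naive and central T cell markers, the summed peak score of Ccr7, whose product was a sorting marker, was 706 and 699.9 in eTreg, against 2077 and 1782 in cTreg, that of Tcf7 was 1742 and 1595 in eTreg, against 2886 and 2472 in cTreg, and that of Lef1 was 4807 and 4483 in eTreg, against 6453 and 6058 in cTreg. Summed scores of the 6 CD8 and NK markers were 2194 to 2197 in eTreg and 3408 to 3602 in cTreg. Among them, Klrb1c overlapped between the groups. Ncr1 went the other way, with 17.7 and 18.7 in eTreg, against 11.6 and 8.82 in cTreg. The part of these markers in the results was not tested.

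**Figure D1:**
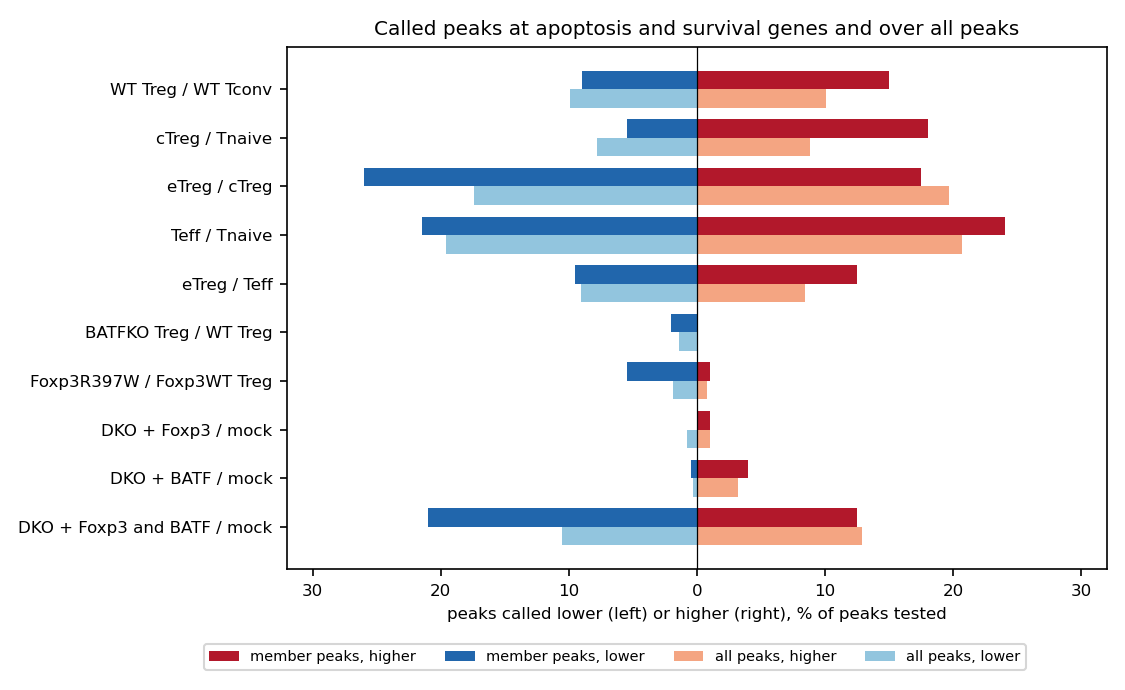
Share of the 200 peaks at apoptosis and survival genes (dark bars) and of all 69316 peaks (light bars) called higher (right of 0) or lower (left of 0) in each comparison, in percent of peaks tested. The 52 of 200 peaks lower in eTreg than in cTreg and the 42 of 200 lower in Foxp3+BATF DKO than in mock DKO extend past the light bars of 17.4% and 10.5%.

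eTreg were also compared with Teff, the hCD2- effector cells. There 25 peaks were higher in eTreg and 19 lower, 22% beside 17.5% of all peaks (8.40% higher and 9.07% lower), with a median log2 change of 0.15 beside 0.04. BH3-only genes had 8 higher and 1 lower, with 5 of the 8 at Pmaip1. Bcl2l1 peak 4 scored 74.2 and 109 in eTreg, against 24.4 and 25.4 in Teff (log2 change 1.81, SE 0.28, adjusted p = 2.3e-05). Fasl had 7 of 16 peaks lower in eTreg, led by peak 16 with 6.65 and 3.51 in eTreg, against 61 and 58.7 in Teff (log2 change -3.37, SE 0.36, adjusted p = 1.1e-07). Leaving out any 1 of the 4 libraries cut the 44 calls to 25 (eTreg 1), 23 (eTreg 2), 25 (Teff 1) or 23 (Teff 2).

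The difference between the step in Treg and the step in conventional cells was tested as an interaction, with 6 of 200 peaks called, all lower, 3% beside 3.91% of all peaks (1.18% higher and 2.72% lower). With only these 4 groups fitted, 4 were higher and 11 lower. Leaving out Teff 1 left 3 calls. At 3 genes a call was kept in every fit that left out 1 library, those of Fasl peak 2 (log2 change -3.17, SE 0.45, adjusted p = 4.1e-05), Bcl2l11 peak 3 (log2 change -2.18, SE 0.35, adjusted p = 0.00021) and Bcl2l1 peak 6 (log2 change -1.47, SE 0.30, adjusted p = 0.0032). At Fasl peak 2 the scores were 56.5 and 48 in eTreg and 56.9 and 60.6 in cTreg, and 76.6 and 99.8 in Teff and 6.39 and 15.5 in Tnaive, so the site was open in both Treg subsets and in Teff, and low in Tnaive alone. At Bcl2l11 peak 3 they were 55.4 and 39.8 in eTreg and 316 and 218 in cTreg, and 180.3 and 180 in Teff and 229 and 209.9 in Tnaive. There the eTreg libraries were lowest and did not overlap those of the other 3 subsets.

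Loss of BATF was compared in Treg sorted without subset gates. Only 4 peaks were called in BATFKO Treg against WT Treg, all lower, 2% beside 1.49% of all peaks (0.0620% higher and 1.43% lower), and 22 of 200 had an unadjusted p under 0.05. They lay at the death ligand Tnfsf10, the BH3-only gene Pmaip1, the death receptor Fas and the pro-survival gene Bcl2l1. With quantile scaling the split was 5 higher and 6 lower, and with edgeR 3 higher and 5 lower. Leaving out WT Treg 1 left 0 calls.

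Pmaip1 peak 9 scored 14.4 and 7.58 in BATFKO Treg, against 64.8 and 58.2 in WT Treg (log2 change -2.44, SE 0.51, adjusted p = 0.0056), a call lost without BATFKO Treg 2 (adjusted p = 0.16) or WT Treg 1 (adjusted p = 0.13). Tnfsf10 peak 8 scored 3.32 and 0 in BATFKO Treg, against 18.3 and 16.3 in WT Treg (log2 change -3.14, SE 0.66, adjusted p = 0.0062), lost without BATFKO Treg 2 (adjusted p = 0.3), WT Treg 1 (adjusted p = 0.13) or WT Treg 2 (adjusted p = 0.051). At both, each BATFKO library lay below each WT library, as the naming rule required. Fas peak 4 scored 41 and 56.8 in BATFKO Treg, against 114 and 111 in WT Treg (log2 change -1.20, SE 0.28, adjusted p = 0.017), lost without BATFKO Treg 1 (adjusted p = 0.29), WT Treg 1 (adjusted p = 0.21) or WT Treg 2 (adjusted p = 0.099). Bcl2l1 peak 4 scored 40.4 and 46.7 in BATFKO Treg, against 97.8 and 89.8 in WT Treg (log2 change -1.09, SE 0.28, adjusted p = 0.039), and lost its call without any 1 of the 4 libraries (adjusted p = 0.13 to 0.4).

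Foxp3R397W Treg carry a substitution in Foxp3, the transcription factor that defines the lineage. Against Foxp3WT Treg, 2 peaks were higher and 11 lower, 6.5% beside 2.63% of all peaks (0.776% higher and 1.85% lower), and 8 of the 11 lay at BH3-only genes, 7 of them at Pmaip1. Of the 11, 7 were higher in Foxp3+BATF DKO than in mock DKO, which share no library with them, against 944 of the 1283 peaks lower in the mutant over all peaks. The count was 2 without Foxp3R397W Treg 1, 2 without Foxp3R397W Treg 2, 1 without Foxp3WT Treg 1 and 2 without Foxp3WT Treg 2. Tnfsf10 peak 4 scored 8.44 and 8.12 in Foxp3R397W Treg, against 40.2 and 32.8 in Foxp3WT Treg (log2 change -2.01, SE 0.37, adjusted p = 0.0023), a call lost without Foxp3WT Treg 1 (adjusted p = 0.068). Bid peak 3 scored 28.1 and 14.5 in Foxp3R397W Treg, against 62.3 and 64.9 in Foxp3WT Treg (log2 change -1.60, SE 0.36, adjusted p = 0.011), lost without Foxp3R397W Treg 2 (adjusted p = 0.28), Foxp3WT Treg 1 (adjusted p = 0.11) or Foxp3WT Treg 2 (adjusted p = 0.11). Pmaip1 peak 3 scored 5.06 and 4.24 in Foxp3R397W Treg, against 25.4 and 24.1 in Foxp3WT Treg (log2 change -2.19, SE 0.59, adjusted p = 0.039), lost without any 1 of the 4 libraries (adjusted p = 0.17 to 0.24). In each of these the mutant libraries were both lower, with no overlap, as the naming rule required. The 2 higher peaks were Fasl peak 16, with 52.3 and 50.1 in Foxp3R397W Treg, against 22.8 and 17.4 in Foxp3WT Treg (log2 change 1.32, SE 0.36, adjusted p = 0.045; adjusted p = 0.15 to 0.34 without any 1 library), and Bcl2 peak 5, with 180.1 and 179 in Foxp3R397W Treg, against 103 and 92.3 in Foxp3WT Treg (log2 change 0.88, SE 0.22, adjusted p = 0.023; adjusted p = 0.12 to 0.21 without any 1 library).

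DKO Treg given back Foxp3, BATF or both addressed how the 2 factors act alone and together. With both, Pmaip1, Bid, Tnfsf10, Bcl2l1 and Diablo (Smac, an antagonist of IAP proteins) gained accessible peaks, while Bcl2 had 17 of 31 peaks lower, Fasl 8 of 16 lower and Mcl1 3 of 7 lower. In Foxp3+BATF DKO against mock DKO, 25 peaks were higher and 42 lower, 33.5% beside 23.3% of all peaks (12.9% higher and 10.5% lower), with a median log2 change of -0.09 beside -0.04. Pro-survival genes had 5 peaks higher and 22 lower of 55 (median -0.34), and BH3-only genes 12 higher and 7 lower of 46 (median 0.17). Of these, 17 of the 22 lay at Bcl2, 6 of the 12 at Pmaip1 and 4 of the 7 at Bcl2l11. In BATF DKO against mock DKO, 8 peaks were higher and 1 lower, 4.5% beside 3.49% of all peaks (3.20% higher and 0.291% lower), and with quantile scaling 5 were higher and 0 lower. In Foxp3 DKO against mock DKO, 2 were higher and 0 lower, 1% beside 1.82% of all peaks (1.01% higher and 0.814% lower), and with edgeR 2 were higher and 1 lower.

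Leaving out mock DKO 2 left 41 calls for both factors. For BATF alone the count was 5 without BATF DKO 1, 4 without BATF DKO 2, 4 without mock DKO 1 and 3 without mock DKO 2. For Foxp3 alone it was 1 without Foxp3 DKO 2 and 1 without mock DKO 1. Summed B cell marker scores were 785 to 824 in Foxp3+BATF DKO and 399 to 433 in mock DKO over 3 of 6 markers with peaks, those of Cd79b, Pax5 and Ebf1, while Ms4a1 and Cd79a were among those with none. Myeloid marker scores were 1518 to 1779 in Foxp3+BATF DKO and 909 to 1110 in mock DKO over 4 of 6 markers, without Csf1r and Adgre1. Most of that rise was at Itgam, with 760 and 990 in Foxp3+BATF DKO, against 307 and 439 in mock DKO. Lyz2 and Spi1 were also higher. Cd14 went the other way, with 104 and 76 in Foxp3+BATF DKO, against 111 and 106 in mock DKO. Summed peak scores of the naive and central T cell marker Ccr7 were 2743 and 3556 in Foxp3+BATF DKO, against 5612 and 7859 in mock DKO. Those of Tcf7 were 3077 and 3818 in Foxp3+BATF DKO, against 6682 and 9525 in mock DKO, and those of Lef1, which overlapped, 5007 and 6197 in Foxp3+BATF DKO, against 6050.2 and 7900.4 in mock DKO. The part of these markers in the results was not tested.

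All 4 peaks that were lower in BATFKO Treg were higher in BATF DKO than in mock DKO, a pair of comparisons that share no library, and over all peaks 732 of the 989 lower in BATFKO Treg were higher there. For BATF DKO the calls at Tnfsf10 peak 8 (adjusted p = 0.072 to 0.21) and Fas peak 4 (adjusted p = 0.054 to 0.27) were lost without any 1 of the 4 libraries, and also with quantile scaling. Pmaip1 peak 9 scored 127 and 129 in Foxp3+BATF DKO, 44.5 and 29.8 in BATF DKO, 6.45 and 15.3 in Foxp3 DKO and 0 and 3.91 in mock DKO. The groups were ordered without overlap, from 0 and 4 reads with mock viruses upwards, and the changes against mock DKO were called for both factors (log2 change 5.86, SE 0.51, adjusted p = 7.9e-10), for BATF (log2 change 4.08, SE 0.51, adjusted p = 2.5e-06) and for Foxp3 (log2 change 2.32, SE 0.51, adjusted p = 0.014), the last lost without Foxp3 DKO 2 (adjusted p = 0.18) or mock DKO 1 (adjusted p = 0.24). Bcl2l1 peak 4 scored 346 and 424 in Foxp3+BATF DKO, 165 and 167 in BATF DKO, 69.9 and 59.9 in Foxp3 DKO and 54.8 and 43 in mock DKO. It was called for both factors (log2 change 2.95, SE 0.28, adjusted p = 4.6e-09) and for BATF (log2 change 1.75, SE 0.28, adjusted p = 0.00012), without overlap with mock DKO. Tnfsf10 peak 1 was the second peak called with Foxp3 alone, at 109.7 and 99.8 in Foxp3 DKO, against 32.7 and 27.4 in mock DKO (log2 change 1.77, SE 0.32, adjusted p = 0.0027).

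The departure from an additive effect of the 2 viruses on the log2 scale was called at 7 peaks, all lower (3 higher and 8 lower with a pseudocount of 5), 3.5% beside 1.09% of all peaks (0.586% higher and 0.506% lower), and 34 had an unadjusted p under 0.05. They lay at Bcl2 (4 peaks), Fasl (2) and Bcl2l11 (1). The count was 1 without Foxp3+BATF DKO 1, 3 without BATF DKO 1, 1 without BATF DKO 2, 2 without mock DKO 1, 2 without mock DKO 2 and 1 without Foxp3 DKO 2. Fasl peak 12 kept its call in every one of these fits (log2 change -1.54, SE 0.25, adjusted p = 0.0032), and scored 72.8 and 84.1 in Foxp3+BATF DKO, 265 and 271 in BATF DKO, 237 and 264 in Foxp3 DKO and 313 and 272 in mock DKO. The libraries with both factors were well below those of the other 3 groups. All 7 calls were lost when only the 4 DKO groups were fitted.

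**Figure D2:**
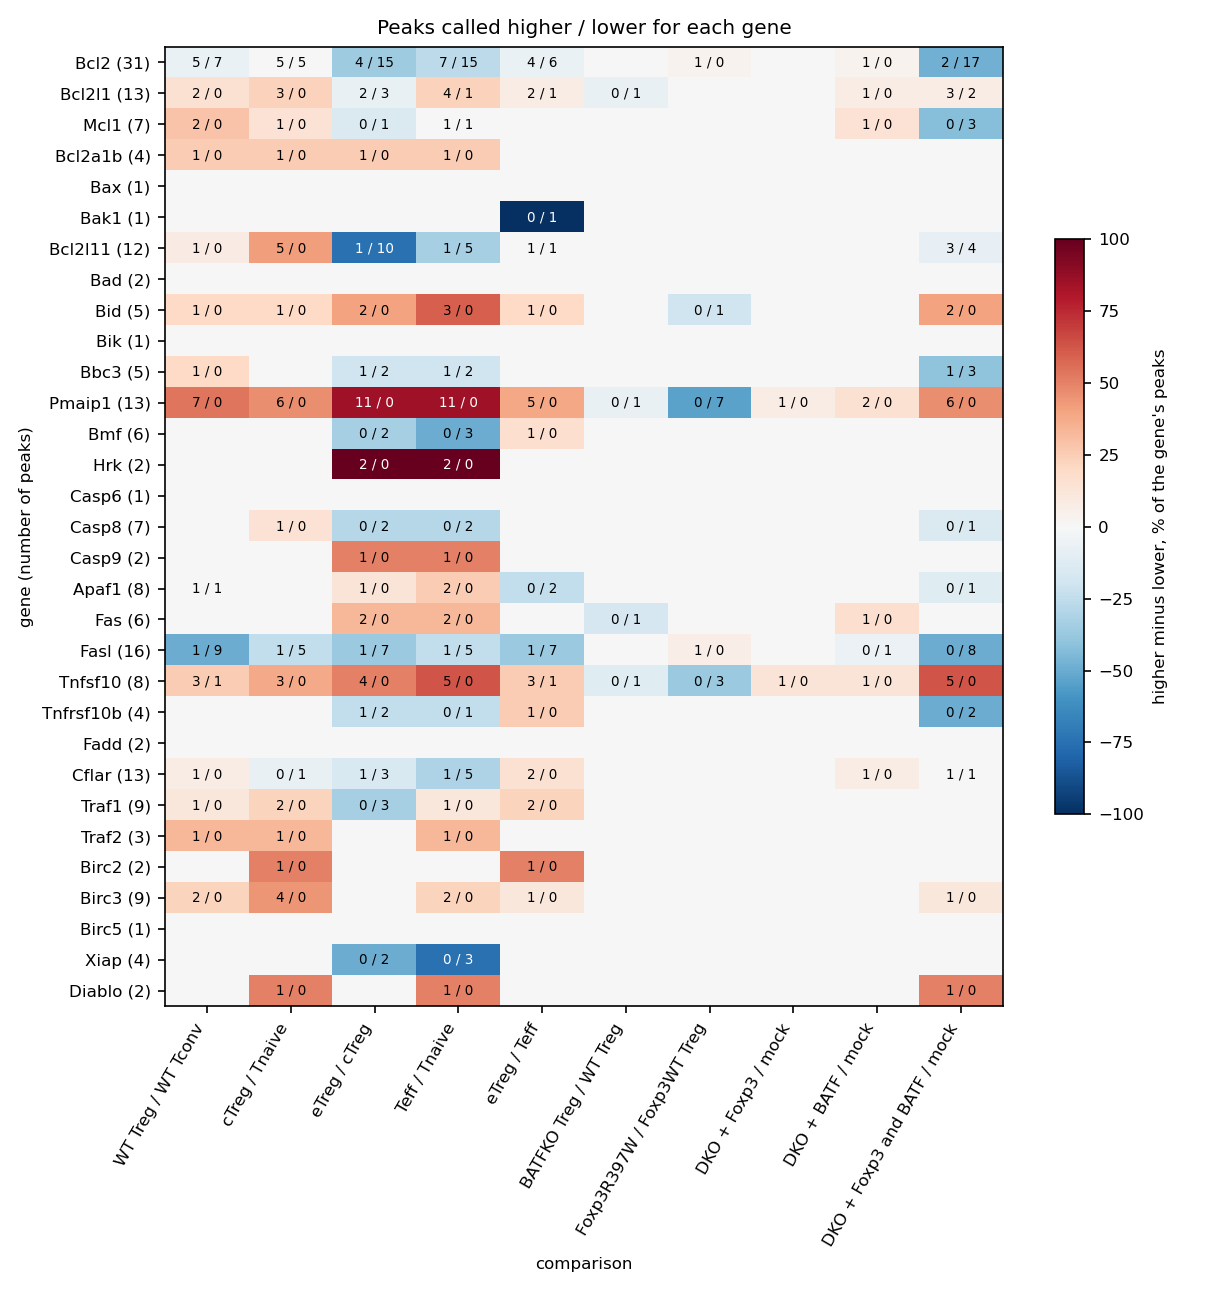
Number of peaks called higher and lower for each of the 31 genes in each comparison, one row per gene grouped by role and coloured by the calls higher minus lower in percent of the gene's peaks. Pmaip1 shows 11 peaks higher and 0 lower in eTreg against cTreg, Bcl2 4 higher and 15 lower there, and Bax, Bad, Bik, Casp6, Fadd and Birc5 show none in any comparison of 2 groups.

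Among the pro-survival genes, Bcl2 encodes the founding family member, and its called peaks were mostly lower in effector cells. In eTreg 15 were lower and 4 higher, and in Teff 15 were lower and 7 higher. Its strongest peak, promoter peak 31, had its highest mean among the ATAC groups in Teff, at 802. Bcl2 peak 13, within the gene body at chr1:106595249-106595649, scored 6.65 and 5.85 in eTreg, against 40.9 and 46.3 in cTreg (log2 change -2.62, SE 0.44, adjusted p = 2e-05). It scored 8.71 and 18.6 in Teff, against 103 and 113 in Tnaive (log2 change -2.98, SE 0.44, adjusted p = 2.6e-06). With both factors it scored 0.971 and 6.91, against 41.1 and 32.3 in mock DKO (log2 change -3.24, SE 0.44, adjusted p = 1.8e-06). In all 3 pairs the effector or Foxp3+BATF libraries were lower without overlap. Of the 15 Bcl2 peaks lower in eTreg, 12 were among the 15 of 31 lower in Teff and 10 among the 17 of 31 lower in Foxp3+BATF DKO. Whether these overlaps exceed the share of all 31 peaks that was lower was not tested. Bcl2 peak 9 went the other way, with 119 and 123 in eTreg, against 33.8 and 35.3 in cTreg (log2 change 1.78, SE 0.40, adjusted p = 0.00061), and 56.6 and 50.9 in Teff, against 12.8 and 11.7 in Tnaive (log2 change 2.05, SE 0.40, adjusted p = 0.00011). Summed over all 31 peaks, the Bcl2 score averaged 3810 ± 197 in eTreg and 4477 ± 2.29 in cTreg, and 3037 ± 485 in Foxp3+BATF DKO and 4936 ± 261 in mock DKO (SD, n = 2 each).

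Bcl2l1 had called peaks in both directions. Its peak 7 scored 8.86 and 8.19 in eTreg, against 25.8 and 24.2 in cTreg (log2 change -1.45, SE 0.38, adjusted p = 0.0028), and its promoter, peak 13, scored 578 and 613 in eTreg and 519.9 and 489 in cTreg (adjusted p = 0.24). Mcl1, the short-lived pro-survival protein on which Treg depend, had 7 peaks. Mcl1 peak 6, 2906 bp downstream, scored 81.9 and 98.8 in Teff, against 235 and 220.3 in Tnaive (log2 change -1.33, SE 0.23, adjusted p = 2.1e-05). It also scored lower with both factors, at 191 and 211 in Foxp3+BATF DKO, against 297 and 492 in mock DKO (log2 change -0.93, SE 0.23, adjusted p = 0.0027), a call lost without mock DKO 2 (adjusted p = 0.15). Bcl2a1b belongs to a family of near-identical copies in the mouse, so its reads may be split among them. Its peak 4 scored 226 and 203 in Teff, against 69 and 47.9 in Tnaive (log2 change 1.88, SE 0.30, adjusted p = 1.1e-05), with no overlap.

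The pore-forming effectors had 1 peak each. That of Bak1 was equally near a gene outside the list of 31, and was not counted when tied peaks were dropped. Bax peak 1, at its promoter, scored 106 and 91.3 in eTreg and 91.5 and 117 in cTreg, which overlapped. Bak1 peak 1 scored 27.7 and 22.2 in eTreg, against 37.4 and 45 in Teff (log2 change -0.70, SE 0.25, adjusted p = 0.047), and this call was lost without any 1 of the 4 libraries (adjusted p = 0.069 to 0.3).

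Among BH3-only genes, Bcl2l11 had 10 of 12 peaks lower in eTreg than in cTreg, at the promoter, in the body and downstream, and 1 downstream peak higher. Peak 6 (chr2:128160449-128160849) scored 4.43 and 3.51 in eTreg, against 116 and 88.2 in cTreg (log2 change -4.36, SE 0.35, adjusted p = 6.7e-11). It scored 0.871 and 2.93 in Teff, against 46 and 32.4 in Tnaive (log2 change -3.87, SE 0.35, adjusted p = 3.5e-10). The site was thus nearly closed in all 4 effector libraries and open in all 4 resting ones. Peak 10 (chr2:128229730-128230130), 67183 bp from the body, scored 84.2 and 81.9 in eTreg, against 6.22 and 9.92 in cTreg (log2 change 3.24, SE 0.46, adjusted p = 1.7e-06). With both factors it scored 56.3 and 51.8, against 8.43 and 7.82 in mock DKO (log2 change 2.59, SE 0.46, adjusted p = 8e-05). In conventional cells its scores were 26.1 and 18.6 in Teff and 0 and 1.30 in Tnaive, where 1 read in all was counted, a ratio of 35.1 with an exact 95% counting interval of 6.01 to 1410. The 2 sites at 1 gene therefore went opposite ways in both lineages. Bcl2l11 peak 3, in the gene body, scored 77.7 and 153 in Foxp3+BATF DKO, against 471 and 603 in mock DKO (log2 change -2.28, SE 0.24, adjusted p = 3.9e-08).

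The called Pmaip1 peaks all went 1 way within each comparison, higher in 8 of the 10 and lower in BATFKO Treg and in Foxp3R397W Treg. Noxa, its product, binds and destabilises Mcl1. Besides peak 9, which scored 184 and 206 in eTreg, against 8.89 and 12.1 in cTreg (log2 change 4.10, SE 0.51, adjusted p = 1.9e-07), peak 3 scored 44.4 and 33.3 in Teff, against 6.39 and 0 in Tnaive (log2 change 3.86, SE 0.59, adjusted p = 4.5e-06). The peak at the gene itself, peak 7, was the strongest and scored 657 and 689 in eTreg, against 324 and 355 in cTreg, and 503 and 443 in Teff, against 158 and 188 in Tnaive. Both effector pairs lay above both resting pairs. The same 10 peaks were called higher in eTreg and in Teff, of 11 in each list, and all 6 called in Foxp3+BATF DKO were among the 11 of eTreg. With 11 of its 13 peaks in each effector list, large overlaps were bound to arise. Summed over its 13 peaks, Pmaip1 averaged 2172 ± 48.8 in eTreg and 857 ± 83.9 in cTreg, 1325 ± 64.4 in Teff and 459.9 ± 14.7 in Tnaive, 511 ± 6.05 in Foxp3R397W Treg and 922 ± 76.9 in Foxp3WT Treg, and 1499 ± 118 in Foxp3+BATF DKO and 939 ± 56.0 in mock DKO (SD, n = 2 each).

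**Figure D3:**
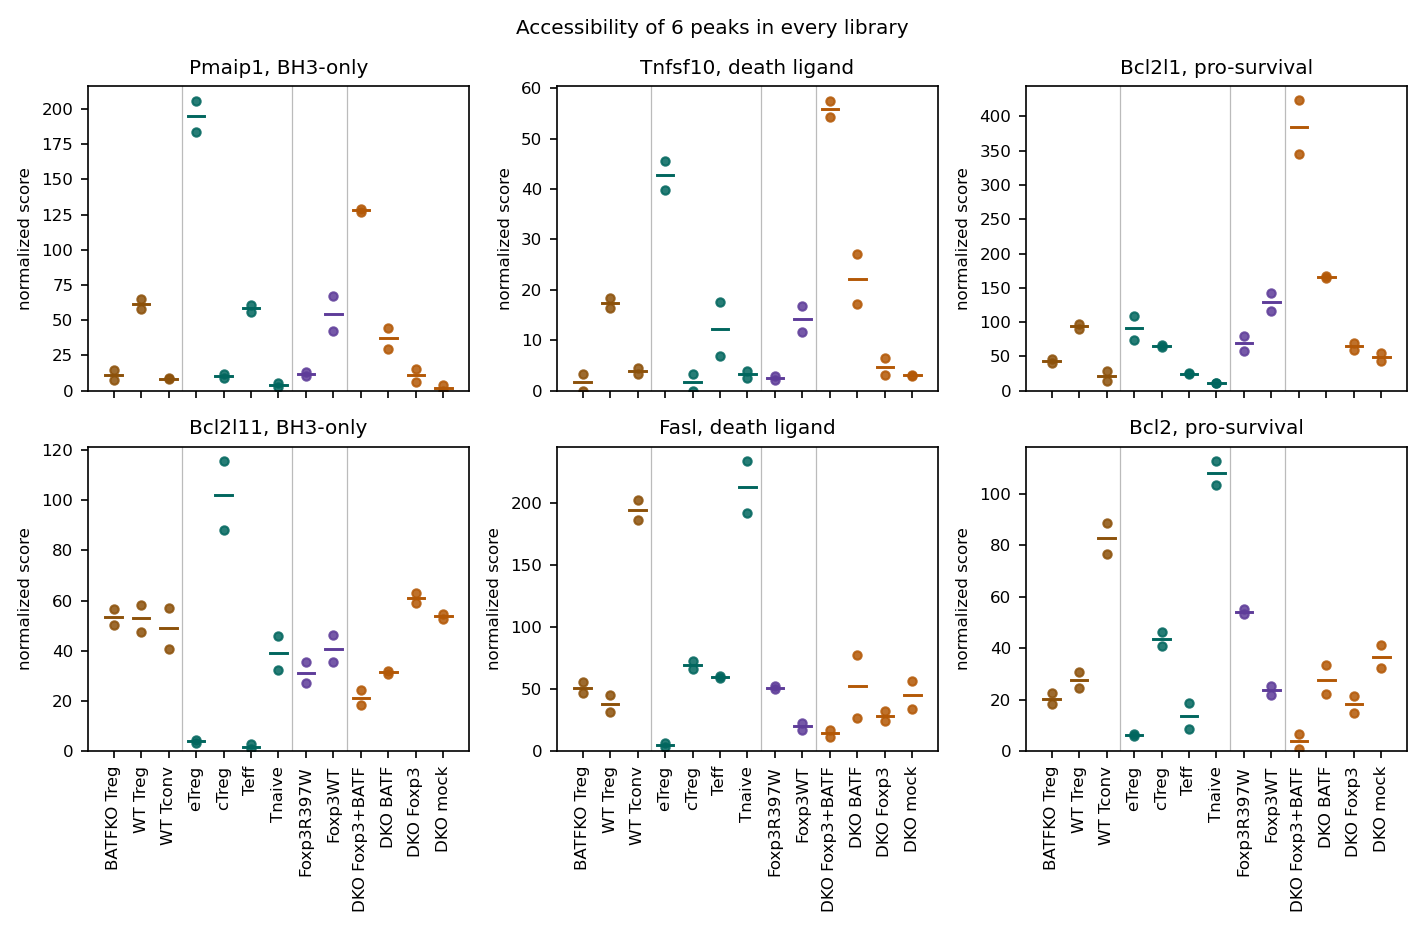
Normalized peak score of 6 peaks (Pmaip1 peak 9, Tnfsf10 peak 8, Bcl2l1 peak 4, Bcl2l11 peak 6, Fasl peak 16 and Bcl2 peak 13) in each of the 26 libraries, on linear axes that start at 0, with a point for each library and a horizontal line for the group mean. Pmaip1 peak 9 reaches 184 and 206 in eTreg and 127 and 129 in Foxp3+BATF DKO, whereas Bcl2l11 peak 6 is lowest in eTreg and Teff.

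Bid peak 3, in the gene body, scored 115 and 107 in eTreg, against 17.8 and 12.1 in cTreg (log2 change 2.83, SE 0.36, adjusted p = 2.9e-07), and 35.7 and 36.2 in Teff, against 3.83 and 2.59 in Tnaive (log2 change 3.15, SE 0.36, adjusted p = 3.5e-08). With both factors it scored 85.4 and 119, against 23.2 and 23.5 in mock DKO (log2 change 2.06, SE 0.36, adjusted p = 6.3e-05). With 1 factor the change at this site was not called (adjusted p = 0.24 for BATF and 0.29 for Foxp3). Hrk, a BH3-only gene known from neurons, had 2 peaks in its body. Hrk peak 2 scored 88.6 and 74.9 in eTreg, against 21.3 and 35.3 in cTreg (log2 change 1.54, SE 0.32, adjusted p = 0.00035), and Hrk peak 1 39.2 and 42.1 in Teff, against 10.2 and 10.4 in Tnaive (log2 change 1.88, SE 0.37, adjusted p = 0.00013). Both effector groups lay above their resting counterparts without overlap. Bbc3, a p53 target, had weaker changes: peak 4 scored 73.1 and 76.1 in eTreg, against 125 and 127 in cTreg (log2 change -0.75, SE 0.21, adjusted p = 0.0048), and peak 3 scored 56.3 and 56.4 in Foxp3+BATF DKO, against 91.7 and 107 in mock DKO (log2 change -0.80, SE 0.20, adjusted p = 0.0028).

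Bmf, a BH3-only gene tied to the cytoskeleton, was lower in effector cells at peak 3, with 26.1 and 17.6 in Teff, against 88.1 and 44.1 in Tnaive (log2 change -1.50, SE 0.34, adjusted p = 0.00069; lost without Tnaive 1 (adjusted p = 0.051)). The same peak scored 53.2 and 55 in eTreg, against 139 and 73.8 in cTreg (log2 change -0.89, SE 0.34, adjusted p = 0.039; lost without eTreg 1 (adjusted p = 0.14), eTreg 2 (adjusted p = 0.11) or cTreg 1 (adjusted p = 0.47)). Its effector libraries were below its resting ones in both lineages. Bad and Bik had no call. The Bad promoter, peak 1, scored 75.3 and 43.3 in eTreg and 68.4 and 49.6 in cTreg, which overlapped, and Bik peak 1 scored 76.4 and 77.2 in eTreg and 85.3 and 83.8 in cTreg (adjusted p = 0.63).

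At the apoptosome and caspase genes, Apaf1, the scaffold that activates caspase-9, had 1 of 8 peaks higher in eTreg than in cTreg. That one, Apaf1 peak 7, scored 42.1 and 53.8 in eTreg, against 6.22 and 6.61 in cTreg (log2 change 2.71, SE 0.42, adjusted p = 5.3e-06), and its promoter, peak 8, 778 and 790 in eTreg and 784 and 770.4 in cTreg (adjusted p = 0.97). Casp9 peak 2 scored 35.5 and 33.9 in eTreg, against 6.22 and 16.5 in cTreg (log2 change 1.67, SE 0.43, adjusted p = 0.0028), a call lost without cTreg 1 (adjusted p = 0.13). Casp8, the initiator caspase of death receptors, was lower at peak 6, with 101 and 108 in Teff, against 183 and 198 in Tnaive (log2 change -0.86, SE 0.21, adjusted p = 0.0016). All 3 named peaks lay in gene bodies, and none of these pairs overlapped. Casp6 peak 1, at its promoter, scored 791 and 837 in eTreg and 649 and 739.5 in cTreg.

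Of the death ligands, Fasl was lower at most called peaks in Treg, in effector cells and with both factors. Fasl peak 16 (chr1:161801322-161801722) scored 6.65 and 3.51 in eTreg, against 66.7 and 72.7 in cTreg (log2 change -3.59, SE 0.36, adjusted p = 6.2e-09). Fasl peak 13 (chr1:161779080-161779480), 1211 bp downstream of the gene, scored 24.3 and 34.5 in Foxp3+BATF DKO, against 174 and 157 in mock DKO (log2 change -2.47, SE 0.23, adjusted p = 3.9e-09). That peak scored 68.8 and 51.8 in Teff, against 245 and 241 in Tnaive (log2 change -2.01, SE 0.23, adjusted p = 4.7e-08). In all 3 pairs the libraries did not overlap. The promoter whose sequence is given, peak 14, named after its values were seen, scored 368 and 380.4 in eTreg and 411 and 419 in cTreg (adjusted p = 0.56). The most accessible Fasl site, peak 11, 13772 bp downstream, scored 831 and 816 in eTreg and 725 and 763 in cTreg (adjusted p = 0.59).

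Tnfsf10 went the other way. Peak 8 (chr3:27348816-27349216) scored 39.9 and 45.6 in eTreg, against 0 and 3.31 in cTreg, where 3 reads were counted (log2 change 4.40, SE 0.66, adjusted p = 3.9e-06; ratio 28.9 with an exact 95% counting interval of 9.52 to 143). It scored 54.4 and 57.6 in Foxp3+BATF DKO, against 3.16 and 2.93 in mock DKO (log2 change 3.82, SE 0.66, adjusted p = 5.6e-05). Peak 5, in the body, scored 131 and 134 in Teff, against 20.4 and 11.7 in Tnaive (log2 change 3.02, SE 0.34, adjusted p = 3.2e-08). Each of these sites was higher in both libraries of the effector or transduced group. Peak 3 was an exception between lineages, with 63.2 and 66.7 in eTreg, against 188 and 242 in Teff (log2 change -1.70, SE 0.35, adjusted p = 0.00075).

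Among the receptors and their adaptors, Fas, the receptor of Fas ligand, had 2 of 6 peaks higher in eTreg than in cTreg and the same 2 higher in Teff than in Tnaive. Its promoter, peak 3, scored 253 and 225 in eTreg and 259 and 235 in cTreg (adjusted p = 0.86). Tnfrsf10b, the mouse TRAIL receptor, had 1 of 4 peaks higher and 2 lower in eTreg. Its peak 4 was lower, with 86.4 and 79.6 in eTreg, against 165 and 110.2 in cTreg (log2 change -0.70, SE 0.21, adjusted p = 0.0084), a call lost without eTreg 2 (adjusted p = 0.065) or cTreg 1 (adjusted p = 0.23). Cflar (c-FLIP), which blocks caspase-8 activation and lies beside Casp8 on the chromosome, had body peaks in both directions. Cflar peak 5 scored 92 and 115 in eTreg, against 20.4 and 26.5 in cTreg (log2 change 2.10, SE 0.34, adjusted p = 1.4e-05), and peak 13, 15040 bp downstream, 79.8 and 99.5 in eTreg, against 205 and 249 in cTreg (log2 change -1.33, SE 0.24, adjusted p = 4e-05). Cflar peak 8 scored 20.0 and 12.7 in Teff, against 39.6 and 57 in Tnaive (log2 change -1.51, SE 0.32, adjusted p = 0.00036). Of 13 Cflar peaks, 1 was higher and 3 lower in eTreg. Fadd peak 1, at its promoter, scored 499.7 and 528 in eTreg and 411 and 396 in cTreg.

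**Figure D4:**
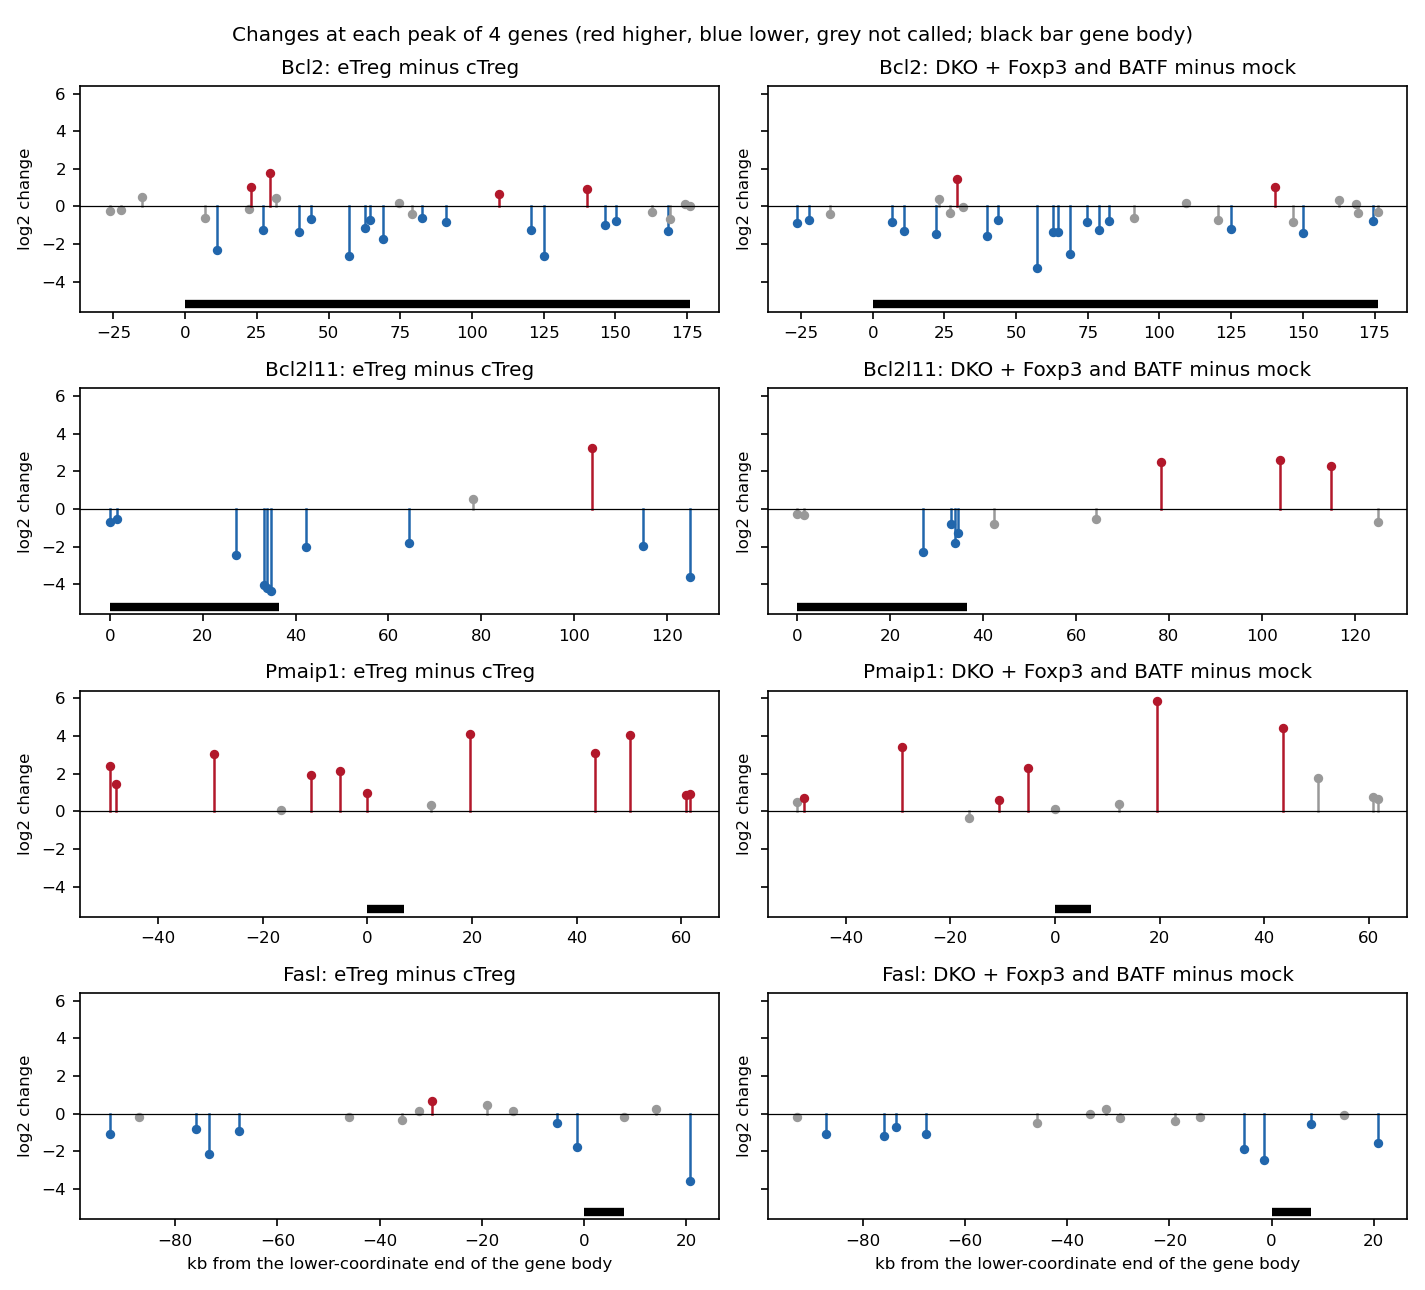
Log2 change at each peak of Bcl2, Bcl2l11, Pmaip1 and Fasl by distance in kb from the lower-coordinate end of the gene body (black bar), for eTreg minus cTreg (left) and Foxp3+BATF DKO minus mock DKO (right); red peaks were called higher, blue lower, grey not called. Blue stems line the Bcl2 body in both columns, with peak 13 at -2.62 and -3.24, and the called Pmaip1 stems are all red.

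At the TRAF adaptors, Traf1 had peaks that were higher in Treg. Its peak 5 scored 35.5 and 38.6 in eTreg, against 13.9 and 13.7 in Teff (log2 change 1.36, SE 0.29, adjusted p = 0.001). Traf1 peak 6 scored 162 and 105 in cTreg, against 28.1 and 33.7 in Tnaive (log2 change 2.05, SE 0.25, adjusted p = 3e-07). At each of these peaks both Treg libraries lay above both conventional libraries. Traf2, which brings IAP proteins to TNF receptors, had its strongest peak at the promoter, with 656 and 671 in eTreg and 696 and 634 in cTreg (adjusted p = 1).

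Among the IAP family, Birc3 (cIAP2), which lies next to Birc2 (cIAP1), was higher in Treg. Birc3 peak 3 scored 84.3 and 49 in WT Treg, against 11.4 and 25 in Tconv (log2 change 1.86, SE 0.34, adjusted p = 0.00015), without overlap. Birc2 peak 2, at its promoter, scored 864 and 871 in WT Treg and 745 and 691 in Tconv (adjusted p = 0.24). Xiap, the direct caspase inhibitor, was lower in effector cells, with 4.35 and 3.91 at peak 4 in Teff, against 48.5 and 36.3 in Tnaive (log2 change -3.07, SE 0.72, adjusted p = 0.00091). Diablo peak 1, in the body, scored 102 and 106 in Foxp3+BATF DKO, against 13.7 and 10.8 in mock DKO (log2 change 3.00, SE 0.58, adjusted p = 0.00023), and did not overlap. Birc5 peak 1, at its promoter, scored 143 and 143 in eTreg and 159 and 154 in cTreg.

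A wider list of 31 other genes of cell death and survival, such as Tnfaip3, Pim1, Ripk1 and Traf3, had 146 peaks at 28 genes. Shares called are given for these peaks, then for those of the 31 genes described above, then for all peaks. In eTreg against cTreg 20 were higher and 26 lower (31.5%, 43.5% and 37.1%). In Teff against Tnaive 28 were higher and 23 lower (34.9%, 45.5% and 40.3%). In Foxp3+BATF DKO against mock DKO 14 were higher and 16 lower (20.5%, 33.5% and 23.3%). In cTreg against Tnaive 16 were higher and 8 lower (16.4%, 23.5% and 16.6%). In WT Treg against Tconv 19 were higher and 15 lower (23.3%, 24% and 20.0%). In eTreg against Teff 13 were higher and 12 lower (17.1%, 22% and 17.5%). In Foxp3R397W Treg 0 were higher and 6 lower (4.11%, 6.5% and 2.63%). In Foxp3 DKO 3 were higher (2.05%, 1% and 1.82%). In BATF DKO 1 was higher and 1 lower (1.37%, 4.5% and 3.49%), and in BATFKO Treg 0 were called (0%, 2% and 1.49%). The difference between the lists was not tested.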

How the data were processed

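Values are read coverage per peak, a normalized signal deposited by the authors as a score for each library, and per the submitters' processing notes reads were aligned to mm10 with Bowtie2 2.4.1, peaks called with MACS2 2.2.7.1 and counts handled with DiffBind 3.0.15 or 3.4.11 and edgeR 3.36.0 or 3.38.4; which step each tool served is not given in the sources used here. Every deposited score was a whole number of reads times 1 factor per library (100% of values whole within 0.02 reads), from 3716499 to 25462278 reads in peaks. The factors, and so any overall shift in accessibility between groups, are the authors'. The 31 genes, the lists and the tests were chosen with earlier results of these data known. Peaks were assigned to genes with RefSeq gene bodies, which give no exons. Tied peaks, equally near a gene outside the list of 31, numbered 4, with 1 each at Bak1, Bcl2l11, Bad and Apaf1. Log2(score + 1) was fitted with limma 3.58.1 (trend and robust, R 4.3.3) over all 69316 peaks with 13 groups of 2 libraries and 13 residual degrees of freedom, and p-values were adjusted by Benjamini-Hochberg over all peaks. The fit was also run on simulated reads, with changes placed only at peaks above the median score. That run does not bear on peaks with few reads. A log2 change understates that of low peaks. The median standard error was 0.34, and 0.48 for interactions.

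Named peaks were, in each comparison, up to 10 called peaks a direction with the largest log2 change and no overlap between groups, 1 per gene, plus each gene's strongest peak and all called in an interaction; any other is said to be named after its values were seen. Alternatives were a pseudocount of 5, a filter at a score of 10 in 2 libraries, quantile scaling, edgeR 4.0.16 on the recovered reads, only the groups compared, a 1.5-fold test, a replicate block, each library left out, tied peaks dropped and the other table. Between the tables, 18 libraries were matched by equal reads at 98.0% or more of 4478 identical peaks, against 3.35% or less for any other pairing. Some marker genes are not reported here. Under the names used no library is Foxp3KO Treg, so no group of that name was analysed here. The table does not say which of 2 control pairs its Foxp3WT libraries are. Scripts used Python 3.11.15, pandas 2.3.3, numpy 2.4.6 and matplotlib 3.10.9. Counting intervals are exact and cover counting error only.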

Additional observations from a re-analysis of the deposited data

Results flagged for a closer look

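By the test of the interaction, 6 peaks changed differently in the effector step of Treg and of conventional cells, each lower on the log2 scale for eTreg against cTreg than for Teff against Tnaive. Fasl peak 2 (log2 change -3.17, SE 0.45, adjusted p = 4.1e-05), Bcl2l11 peak 3 (log2 change -2.18, SE 0.35, adjusted p = 0.00021) and Bcl2l1 peak 6 (log2 change -1.47, SE 0.30, adjusted p = 0.0032) kept their calls without any 1 of the 8 libraries. Bcl2l1 peak 6 scored 41 and 38.6 in eTreg and 83.5 and 106 in cTreg, and 74 and 57.7 in Teff and 53.6 and 55.7 in Tnaive. It was lower in eTreg (log2 change -1.22, SE 0.21, adjusted p = 3.1e-05), while the change in Teff did not pass the test (log2 change 0.25, adjusted p = 0.37). Bcl2l11 peak 12 (log2 change -2.05, SE 0.45, adjusted p = 0.0061) lost its call without Teff 1 (adjusted p = 0.073). It scored 9.97 and 12.9 in eTreg and 155 and 152 in cTreg, and 14.8 and 6.85 in Teff and 29.4 and 36.3 in Tnaive. Traf2 peak 1 (log2 change -0.98, SE 0.24, adjusted p = 0.016) lost its call in 5 of the 8 fits that left out a library (adjusted p = 0.05 to 0.08), namely those without eTreg 2, cTreg 1, Tnaive 1, Teff 1 or Teff 2. Fasl peak 16 (log2 change -1.78, SE 0.52, adjusted p = 0.045) kept it only without eTreg 1 (adjusted p = 0.069 to 0.23 in the other 7).

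The departure from an additive effect of the Foxp3 and BATF viruses was called at 7 peaks, all lower with both factors than the sum of the single changes on the log2 scale. Fasl peak 12 (log2 change -1.54, SE 0.25, adjusted p = 0.0032) kept its call without any 1 library. Fasl peak 13 (log2 change -1.54, SE 0.33, adjusted p = 0.021) lost it without Foxp3+BATF DKO 1 (adjusted p = 0.067), BATF DKO 2 (adjusted p = 0.1), mock DKO 2 (adjusted p = 0.061) or Foxp3 DKO 2 (adjusted p = 0.091), and scored 24.3 and 34.5 in Foxp3+BATF DKO, 129.9 and 171 in BATF DKO, 83.9 and 109 in Foxp3 DKO and 174 and 157 in mock DKO. The group with both factors was lowest there, and the Foxp3 DKO libraries also lay below the mock DKO libraries, without a call (adjusted p = 0.079). Bcl2 peak 5 (log2 change -1.21, SE 0.31, adjusted p = 0.049), peak 16 (log2 change -1.44, SE 0.35, adjusted p = 0.042), peak 23 (log2 change -2.06, SE 0.53, adjusted p = 0.049) and peak 26 (log2 change -1.22, SE 0.28, adjusted p = 0.033) and Bcl2l11 peak 3 (log2 change -1.35, SE 0.35, adjusted p = 0.049) were called as well. Each of these 5 lost its call in 6 or 7 of the 8 fits that left out a library, with adjusted p = 0.07 to 0.18 for Bcl2 peak 5, adjusted p = 0.084 to 0.15 for peak 16, adjusted p = 0.052 to 0.19 for peak 23, adjusted p = 0.059 to 0.13 for peak 26 and adjusted p = 0.06 to 0.22 for Bcl2l11 peak 3. Bcl2 peak 26 scored 70.9 and 99 in Foxp3+BATF DKO, 208 and 211 in BATF DKO, 186 and 243 in Foxp3 DKO and 219 and 234 in mock DKO. With only the 4 DKO groups fitted, none of the 7 was called.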

How the results depend on the processing

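Dropping low scores or tied peaks left all 12 counts of called peaks within 1.5 times. Testing against a 1.5-fold change left 16 calls for WT Treg against Tconv, 14 for cTreg against Tnaive, 37 for eTreg against cTreg, 48 for Teff against Tnaive, 7 for eTreg against Teff, 0 for BATFKO Treg, 0 for Foxp3R397W Treg, 0 for Foxp3 DKO, 3 for BATF DKO, 22 for Foxp3+BATF DKO, 2 for the interaction of the effector step and 0 for the departure from additive effects. Other settings that moved a count past 1.5 times were a pseudocount of 5 (additive departure 11, with 3 higher and 8 lower), quantile scaling (WT Treg against Tconv 74, with 51 higher and 23 lower; BATFKO Treg 11; Foxp3 DKO 1; BATF DKO 5; effector interaction 15), edgeR on recovered reads (BATFKO Treg 8, Foxp3R397W Treg 27) and fitting only a comparison's own groups (Foxp3R397W Treg 29, Foxp3 DKO 1, effector interaction 15, with 4 higher and 11 lower, additive departure 0). Under its own library names the other table gave 76 calls for WT Treg against Tconv, 0 for cTreg against Tnaive, 17 for eTreg against cTreg, 20 for Teff against Tnaive, 0 for eTreg against Teff, 91 for Foxp3R397W Treg and 0 for the effector interaction. The Tnaive libraries, among the 6 that scored 1.28 to 13.6 at Foxp3, are named Foxp3WT Treg in the other table, although the 20 libraries named Treg in the table used scored 316 to 1119. The Teff libraries, also among those 6, are named Foxp3KO Treg there, and whether the Foxp3 score tells these names apart was not tested. The Foxp3 score bears on no name exchanged between Treg groups.

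With 1 library left out, the lone library of a group being assumed to vary like the others, counts ran from 26 to 37 for WT Treg against Tconv, 29 to 37 for cTreg against Tnaive, 55 to 68 for eTreg against cTreg, 73 to 74 for Teff against Tnaive, 23 to 25 for eTreg against Teff, 0 to 4 for BATFKO Treg, 1 to 2 for Foxp3R397W Treg, 1 to 3 for Foxp3 DKO, 3 to 5 for BATF DKO, 41 to 64 for Foxp3+BATF DKO, 3 to 7 for the effector interaction and 1 to 9 for the additive departure. With the replicate number as a block, counts moved for BATFKO Treg (12), Foxp3R397W Treg (25), Foxp3 DKO (8, with 4 higher and 4 lower), the effector interaction (19, with 4 higher and 15 lower) and the additive departure (15). Same-numbered libraries deviated together with correlations of 0.04 to 0.33, but each group has 2 numbers and no label ties them. Of 136 named changes, 78 kept their call without any 1 library, 111 in every other setting apart from the 1.5-fold test, 0 lost it under the block, and 0 reversed. The settings counted here exclude the dropping of tied peaks and the other table, where named changes were not followed. In the 1.5-fold test 70 of the 136 lost their call, and 66 kept it in every other setting counted with that test included. The cause was not tested for any of these shifts. Depth of 3716499 to 25462278 reads and 2 libraries a group limit the precision.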

Other observations

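Several of these genes had score levels that separated the groups titled omniATAC from those titled ATAC, which no comparison above crosses. The promoter of Bax had group means of 444 to 489.7 in the 6 omniATAC groups and 98.5 to 133.6 in the 7 ATAC groups. The promoter of Birc5, active in dividing cells, had group means of 679.8 to 1011 in the omniATAC groups and 128 to 184 in the ATAC groups, that of Bad 257 to 338 in the omniATAC groups and 59 to 82.3 in the ATAC groups, and that of Diablo 745 to 965 in the omniATAC groups and 210.1 to 290 in the ATAC groups. Bak1 peak 1 had group means of 122 to 158 in the omniATAC groups and 25 to 41.2 in the ATAC groups. Casp6 was the reverse, with 336 to 573 in the omniATAC groups and 622 to 814 in the ATAC groups. These 6 peaks were named after their values were seen, and at none of them did the ranges overlap. Under the names used, the untransduced Foxp3WT and Foxp3R397W groups lay with the DKO groups at all 6: the Bax promoter averaged 444 in Foxp3WT Treg, 476 in Foxp3R397W Treg and 134 in WT Treg. The parts of the protocol, of transduction and of genotype in this pattern were not tested.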
